A study of Mus musculus with 4 samples.

Results

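Lymphocytes carry many ion channels besides the Orai pores, and 10 of their genes were followed here in group 2 innate lymphoid cells (ILC2s): the potassium channel genes Kcnn4 and Kcna3, the TRP channel genes Trpm4, Trpm7 and Trpv2, the ATP receptor genes P2rx4 and P2rx7, the mechanically gated Piezo1, the proton channel gene Hvcn1 and the anion channel gene Lrrc8a. They were taken from the table by gene name, as a set put together with earlier results of these data known, and all 10 were found among the 22554 genes of the count table. The cells were ILC2s sorted from the lungs of 6-week-old BALB/c mice. All of them were cultured with IL-2, IL-7 and IL-33, either with vehicle or with compound 5D, a small molecule that blocks every Orai channel, in 2 libraries per group. The labels do not say whether the libraries of a group came from separate animals or cultures, so the spread between them may be technical.

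A negative potential inside the cell strengthens the pull on calcium that enters lymphocytes through Orai pores. Potassium channels keep the potential negative by letting potassium out of the cell, whereas the monovalent cation channel TRPM4 and the ATP-gated P2X receptors let positive charge in, and several TRP, P2X and PIEZO channels conduct calcium themselves. With the Orai pore blocked, the question is whether the RNA of these other routes was present in ILC2s and whether its level differed between the groups.

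The libraries held 20096555 to 28697265 counts, and both 5D libraries were deeper than both vehicle libraries, a difference that scaling to the library total takes into account. Levels are given as normalized CPM (counts scaled to the upper-quartile-normalized library total, CPM). Between genes they are compared only per kb of annotated exon. All 12 ILC2 markers had a mean of at least 10 normalized CPM, among them Gata3, Il1rl1 and Il7r. Of 43 listed markers of other cell types, 32 were in the table and 21 of these had a mean under 1 normalized CPM. Another 4 had a mean of at least 10: Epcam at 26.2, Cd3g at 22.7, Pecam1 at 20.2 and Cd79b at 15.5 (means of 4 libraries). The lowest ILC2 marker was at 10.8. The summed level of these 32 genes was 107 and 109 normalized CPM with vehicle and 101 and 103 with 5D. RNA was pooled over cells, so fewer cells that express a gene and less RNA per cell cannot be told apart.

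None of the 10 channel genes passed the test for a change with 5D. In edgeR's quasi-likelihood test, 0 of 10 passed an adjusted p-value of 0.05, against 0.0963% of the 17650 genes tested, and 0 of 10 passed an unadjusted p-value of 0.05, against 7.34% of all genes (3.5% higher and 3.84% lower). DESeq2 and limma-voom also called 0 members on either scale, though DESeq2 gave no adjusted p-value for 5 of them. The 10 log2 fold changes lay between -0.29 and 0.35 with a median of 0.039, beside a median of -0.0016 over all genes tested, and 6 were above 0. The median of the 10 was -0.024 without vehicle replicate 2 and -0.028 without 5D replicate 1. The groups did not overlap for 5 genes, where 37.6% of all genes showed this (18.7% with 5D higher and 18.8% with 5D lower). Kcnn4 and P2rx7 were the pair with both 5D libraries above both vehicle libraries, and Kcna3, Trpm7 and Trpv2 had both below. For any gene taken alone, exact permutation of these 4 libraries gives no p-value below 0.333, and the p-values below therefore lean on a spread estimated across genes.

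**Figure D1:**
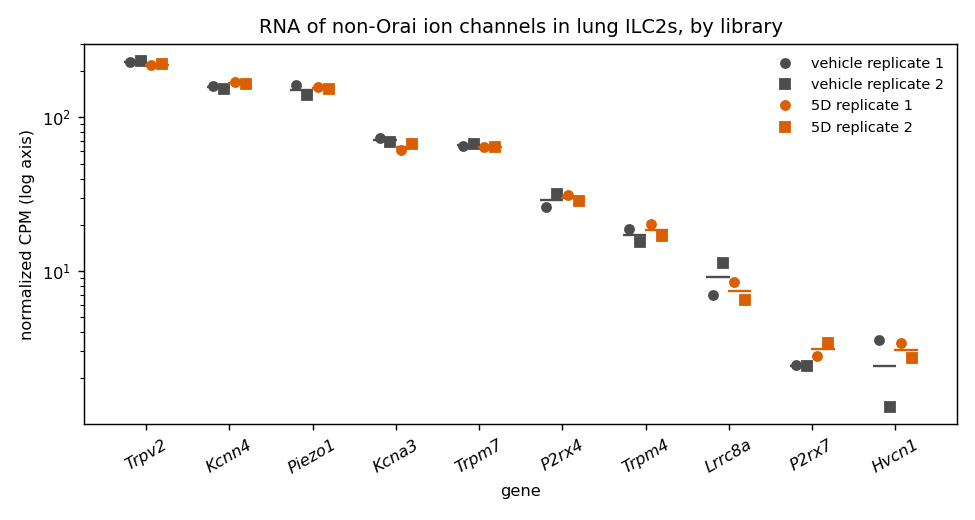
Normalized CPM (log axis) of each channel gene in the 2 vehicle libraries (grey) and the 2 libraries with 5D (orange). Circles are replicate 1 and squares replicate 2, horizontal lines are group means, and genes are not corrected for length. Within each gene the points of both groups sit close together except for Hvcn1 and Lrrc8a, whose vehicle libraries lie apart.

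The width of the intervals differed between genes. For 5 genes (Trpv2, Kcnn4, Piezo1, Trpm7 and P2rx4) the 95% interval of the fold stayed between 0.855 and 1.246. For Lrrc8a, P2rx7 and Hvcn1, each with at most 229 counts in a library, it reached beyond 1.5-fold, so that a change of that size is not excluded for them. The vehicle libraries differed from each other by more than counting error in Lrrc8a and Hvcn1, and also in Piezo1, P2rx4 and Trpm4. Over the 10 genes and both groups, 9 of 20 replicate pairs did so. The share of such pairs over all genes was not computed.

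**Figure D2:**
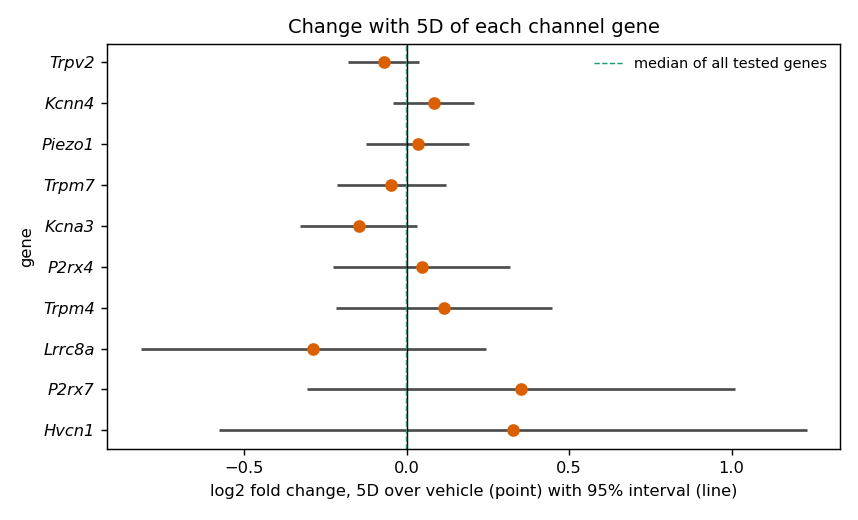
Log2 fold change of 5D over vehicle for each channel gene (point) with its 95% interval from edgeR (line), ordered by the width of the interval. All 10 intervals include 0 (solid line), and they widen from Trpv2 at the top to Hvcn1 at the bottom. The dashed line is the median of all genes tested.

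Kcnn4 (ENSMUSG00000054342.8, mm10 chromosome 7 from 24370263 to 24386690, plus strand) encodes KCa3.1, the potassium channel that internal calcium opens through bound calmodulin. The vehicle libraries held 3742 and 3079 of its counts, and those with 5D 4592 and 4702. These correspond to 161 and 154 normalized CPM with vehicle and 169 and 164 with 5D. Both 5D libraries were the higher ones, by a small margin. On the log2 scale 5D differed from vehicle by 0.083 (standard error, SE, 0.057, adjusted p = 0.822 from edgeR), and the 95% interval of the fold ran from 0.971 to 1.16.

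Kcna3 (ENSMUSG00000047959.4, chromosome 3 from 107036169 to 107038070, plus strand) encodes Kv1.3, the voltage-gated potassium channel of effector lymphocytes. It is a gene with a single annotated exon sequence of 1902 nt. Normalized CPM was 73.7 and 68.8 with vehicle and 61.4 and 67.2 with 5D, so here both 5D libraries were the lower ones. Its log2 fold change was -0.15 (SE 0.082, adjusted p = 0.754 from edgeR), and no other member had a lower adjusted value. The interval of the fold was 0.796 to 1.02. The ratio of Kcnn4 to Kcna3 per kb, taken within a library and so free of normalization, was 0.813 and 0.832 with vehicle and 1.02 and 0.910 with 5D. This ratio was singled out after its values were seen and carries no test. Its size, but not its order across libraries, depends on the length used. Per kb of the longest transcript, Kcnn4 was at 44.6 and Kcna3 at 35.6 normalized CPM (means of 4 libraries).

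The stretch of 250 bases before the RefSeq start of each of these genes (build GRCm38.p6, the assembly of mm10) is shown for the 2 potassium channel genes that help to hold the membrane potential negative. Capitals mark the NFAT core GGAAA, which calcium-activated NFAT binds, found on either strand, and the AP-1 sequence TGANTCA was searched in the same way.
Kcnn4, chr7:24370013-24370262, plus strand: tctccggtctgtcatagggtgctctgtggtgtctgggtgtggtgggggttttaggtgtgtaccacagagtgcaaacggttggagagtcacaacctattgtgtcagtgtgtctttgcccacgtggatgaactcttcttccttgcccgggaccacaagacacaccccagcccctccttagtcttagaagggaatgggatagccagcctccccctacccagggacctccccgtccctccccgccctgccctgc
Kcna3, chr3:107035912-107036161, plus strand: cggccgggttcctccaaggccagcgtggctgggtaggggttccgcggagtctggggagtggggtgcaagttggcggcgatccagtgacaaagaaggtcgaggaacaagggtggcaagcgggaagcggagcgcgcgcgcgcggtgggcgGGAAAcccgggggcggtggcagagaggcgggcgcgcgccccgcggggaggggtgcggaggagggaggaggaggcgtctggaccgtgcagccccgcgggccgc
The Kcnn4 window held 0 copies of GGAAA and the Kcna3 window 1, and neither held TGANTCA. Of the 10 genes, 8 matched the RefSeq table by symbol, with 11 start windows between them. GGAAA was in 5 of these 11 windows, against 55.6% of all 32851 windows of this length. TGANTCA was in 1 window, at P2rx7, against 6.75% of all. These are matches of letters, which do not show binding.

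Around these genes, a wider list of 36 other potassium channel genes held 18 in the table and 13 tested. Of the 13, 0 passed an adjusted p-value of 0.05, and at an unadjusted p-value under 0.05 edgeR gave 1 gene lower and 0 higher. That gene was Kcnk6, a K2P-type background channel, at 9.04 and 8.29 normalized CPM with vehicle and 6.19 and 6.30 with 5D (log2 fold change -0.47, SE 0.19, unadjusted p = 0.0291 and adjusted p = 0.621 from edgeR). The highest level per kb on the list was that of Kcnab2, a cytoplasmic subunit that binds Kv1 channels, at 63.5 normalized CPM per kb. Among the 17 pore-forming potassium channel genes in the table, Kcna3 made up 33.6% to 37.1% of the summed level per kb over the 4 libraries. Kcnn4 made up 29.9% to 34.5%, and Kcnk5, another K2P-type channel, 26.3% to 28.1%. The other 14 genes together took the small remainder.

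Trpv2 (ENSMUSG00000018507.16, chromosome 11 from 62574486 to 62600515, plus strand), a calcium-permeable cation channel of the vanilloid subfamily, had the highest level per kb of the 10 genes, at 50.2 ± 1.48 normalized CPM per kb (SD over 4 libraries). That was above the level of 92.5% of the 17364 tested genes with a length. Its normalized CPM was 230 and 232 with vehicle and 218 and 222 with 5D. The vehicle libraries lay just above those with 5D, with a log2 fold change of -0.070 (SE 0.050, adjusted p = 0.827 from edgeR) and a fold interval of 0.883 to 1.03. Of the 4 TRPV genes in the table it made up 98.8% to 99.6% of the summed level per kb. A stretch of 150 to 171 nt of its transcripts is at least 95% identical to stretches of 22 other genes, among which reads could be split. How many reads this concerns was not measured.

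Trpm7 (ENSMUSG00000027365.14, chromosome 2 from 126791565 to 126876230, minus strand) encodes a channel for magnesium, calcium and zinc fused to a kinase. Its level was even between libraries, at 65.3 and 67.3 normalized CPM with vehicle and 63.8 and 64.4 with 5D. On the log2 scale the difference was -0.047 (SE 0.076, adjusted p = 0.941), with a fold between 0.862 and 1.09. Trpm4 (ENSMUSG00000038260.10, chromosome 7 from 45302632 to 45333780, minus strand), whose calcium-activated channel carries sodium inward and so weakens the pull on calcium, was measured at 18.8 and 15.4 normalized CPM with vehicle. With 5D it was at 20.3 and 16.9, and the groups overlapped. Its log2 fold change of 0.12 (SE 0.15, adjusted p = 0.926) turned to -0.020 without vehicle replicate 2 and to -0.023 without 5D replicate 1. Within the TRPM family Trpm7 made up 74.7% to 79.9% and Trpm4 19.2% to 24.8% of the summed level per kb, and Trpm6, the closest relative of Trpm7, was at 0 counts in the 4 libraries. These shares depend on the length used. Per kb of the longest transcript, Trpm7 was at 9.17 and Trpm4 at 4.14 normalized CPM, beside 5.76 and 1.65 per kb of all annotated exons.

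Of 23 other TRP and mucolipin genes listed, 12 were tested, and edgeR gave 1 gene higher and 0 lower at an unadjusted p-value under 0.05. This was Pkd1, which encodes polycystin-1, at 38.0 and 33.6 normalized CPM with vehicle and 46.3 and 44.3 with 5D (log2 fold change 0.34, SE 0.10, unadjusted p = 0.00588 and adjusted p = 0.515). The lysosomal channel gene Mcoln1 had the highest level per kb of that list, at 5.85. Its normalized CPM was 42.9 and 40.3 with vehicle and 48.2 and 45.5 with 5D (log2 fold change 0.17, adjusted p = 0.752). In magnesium transport, 7 of 8 listed genes were tested. Their 7 log2 fold changes were all below 0, with a median of -0.065. Some were very near 0, as Slc41a1 at -0.0047 (SE 0.15) and Cnnm4 at -0.0091 (SE 0.17), and the shared sign was not tested. An unadjusted p-value of 0.05 was passed by 1 gene, the magnesium transporter gene Slc41a3 at -0.62 (adjusted p = 0.621 from edgeR). Magt1 had the highest level per kb of the magnesium transport list, 28.9.

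P2rx4 (ENSMUSG00000029470.15, chromosome 5 from 122707544 to 122729738, plus strand) encodes P2X4, a receptor channel opened by low extracellular ATP. Its level was 26.2 and 31.8 normalized CPM with vehicle and 31.4 and 28.4 with 5D. The 2 vehicle libraries enclosed both libraries with 5D. The log2 difference, 5D minus vehicle, was 0.046 (SE 0.12, adjusted p = 0.977 from edgeR), with a fold between 0.855 and 1.246. It was -0.094 without vehicle replicate 1 and -0.032 without 5D replicate 1. P2rx7 (ENSMUSG00000029468.17, on the same chromosome from 122643911 to 122691432, plus strand) encodes the receptor that needs high ATP and can end in cell death. It had only 57 and 48 counts with vehicle and 76 and 97 with 5D, which is 2.45 and 2.40 against 2.80 and 3.39 normalized CPM. Both 5D libraries were higher, but the log2 fold change of 0.35 had a standard error of 0.30 (adjusted p = 0.869) and the fold interval ran from 0.808 to 2.02. Exons of the microRNA gene Mir8115 lie on 119 nt of P2rx7 on the same strand.

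Per kb, P2rx4 was 9.06-fold and 11.3-fold above P2rx7 in the vehicle libraries and 9.53-fold and 7.11-fold above it with 5D. The size of this ratio depends on the length used. Per kb of the longest transcript, P2rx4 was at 7.56 and P2rx7 at 0.559 normalized CPM (means of 4 libraries). P2rx4 made up 81.3% to 87.8% of the summed level of the 6 P2X genes in the table, and P2rx7 7.65% to 11.4%. The other 4 P2X genes had at most 14 counts in any library, with P2rx3 highest per kb at 0.103. Of 15 listed genes of ATP release and breakdown and of nucleotide and adenosine receptors, 12 were tested and 0 passed an adjusted p-value of 0.05, and at an unadjusted p-value under 0.05 there was 1 in each direction. P2ry14, a receptor for UDP-sugars, was at 16.4 and 13.04 normalized CPM with vehicle and 20.3 and 17.2 with 5D (log2 fold change 0.35, unadjusted p = 0.0483 and adjusted p = 0.674 from edgeR). Adora2b, an adenosine receptor, was at 36.4 and 44.0 with vehicle and 31.8 and 33.7 with 5D (log2 fold change -0.29, unadjusted p = 0.0251 and adjusted p = 0.602). Ada, the enzyme that breaks down adenosine, had the highest level per kb on that list at 35.8, with a log2 fold change of -0.10 (adjusted p = 0.830).

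Piezo1 (ENSMUSG00000014444.17, chromosome 8 from 122481698 to 122551329, minus strand), whose pore opens when the membrane is stretched, had 3780 and 2803 counts with vehicle and 4287 and 4348 with 5D. Its normalized CPM was 163 and 140 with vehicle and 158 and 152 with 5D, so that the vehicle libraries lay on either side of both others. The log2 fold change was 0.033 (SE 0.073, adjusted p = 0.963 from edgeR), with a fold of 0.916 to 1.14, and it was -0.073 without vehicle replicate 2. Piezo1 was the only PIEZO gene in the table. Exons of Ctu2 on the other strand cover 24.6% of its exon length. Reads on these shared exons may belong to either gene, and the part that belongs to Ctu2 was not tested. With the counts of Ctu2 added, the log2 fold change was 0.042 (adjusted p = 0.935). Of 8 genes from other families with mechanically gated members, 5 were tested and 0 passed an unadjusted p-value of 0.05 in edgeR. Tmc8, a transmembrane channel-like gene, had the highest level per kb of those, 18.1.

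Hvcn1 (ENSMUSG00000064267.13, chromosome 5 from 122206804 to 122242297, plus strand) encodes the voltage-gated proton channel that lets acid out of cells, among them phagocytes during the NADPH oxidase burst. It had 82 and 26 counts with vehicle and 92 and 78 with 5D, or 3.53 and 1.299 against 3.39 and 2.73 normalized CPM. Vehicle replicate 2 stood apart from the other 3 libraries. After normalization, vehicle replicate 1 was 2.72 times as high as vehicle replicate 2 (95% interval 1.73 to 4.40 from the exact binomial, counting error only). The log2 fold change of 0.33 (SE 0.41, adjusted p = 0.921 from edgeR) therefore depended on which vehicle library was used. It was 1.23 without vehicle replicate 1, past an unadjusted but not an adjusted p-value of 0.05, and -0.21 without vehicle replicate 2. Exons of Tctn1 on the other strand cover 44.2% of the exon length of Hvcn1. Tctn1 itself had 60 and 62 counts with vehicle and 76 and 77 with 5D. The summed counts of both genes, 142 and 88 with vehicle and 168 and 155 with 5D, gave a log2 fold change of 0.14 (adjusted p = 0.945). The study's methods name the SMARTer Ultra Low Input RNA kit but not whether reads were counted by strand. Reads on the shared exons may therefore belong to either gene, and the part that belongs to Tctn1 was not tested.

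All 6 listed NADPH oxidase subunit genes were tested, and 1 was higher at an unadjusted p-value under 0.05 in edgeR. Ncf4, which encodes the p40-phox subunit, was at 340 and 320 normalized CPM with vehicle and 375 and 358 with 5D (log2 fold change 0.15, SE 0.050, unadjusted p = 0.0113 and adjusted p = 0.550). Cyba, which encodes the membrane subunit p22-phox, had the highest level per kb of the list at 322, with a log2 fold change of -0.076 (adjusted p = 0.778).

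Lrrc8a (ENSMUSG00000007476.18, chromosome 2 from 30237715 to 30263790, plus strand) encodes the subunit without which the volume-regulated anion channel does not form. The vehicle libraries held 163 and 225 of its counts, and those with 5D 229 and 185. Normalized CPM was 7.02 and 11.2 with vehicle and 8.44 and 6.47 with 5D, with groups that overlapped. The log2 fold change of -0.29 (SE 0.24, adjusted p = 0.866 from edgeR) became -0.60 without vehicle replicate 1, past an unadjusted but not an adjusted p-value of 0.05, and 0.084 without vehicle replicate 2. Its exons share 68.3% of their length with other genes, mainly with Gm28035, a protein-coding gene model on the same strand. Gm28035 was given 26 and 1 counts with vehicle and 54 and 22 with 5D, and with these added the log2 fold change of Lrrc8a was -0.13 (adjusted p = 0.943).

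Of the genes of the partner subunits, Lrrc8b, Lrrc8c and Lrrc8d were at higher levels per kb than Lrrc8a, and Lrrc8e was at a lower one. Lrrc8c made up 55.8% to 59.0% of the summed level per kb of the 5 LRRC8 genes, Lrrc8d 22.6% to 25.8% and Lrrc8b 14.5% to 16.03%. Lrrc8a made up 2.79% to 5.29%. With the counts of Gm28035 added to Lrrc8a this share was 3.12% to 5.31%, and taking the longest transcript as the length of each gene gave 2.11% to 3.97%. The log2 fold changes of Lrrc8b, Lrrc8c and Lrrc8d were 0.017, 0.075 and 0.055 (adjusted p = 0.994, 0.869 and 0.906 from edgeR). Lrrc8e had 6 and 5 counts with vehicle and 0 in both libraries with 5D, with an unadjusted p = 0.0104 and adjusted p = 0.550, too few counts for a fold. Of the 25 other anion channel genes listed, 21 were tested. At an unadjusted p-value under 0.05, 1 was higher and 2 were lower. These were Ttyh3 at 0.32 on the log2 scale (adjusted p = 0.674), Ttyh1 at -0.93 (adjusted p = 0.629) and Lrrc8e. Clic1, a chloride intracellular channel protein, had the highest level per kb of the list at 389, with a log2 fold change of -0.0014 (adjusted p = 0.997), a sign that turned to 0.0080 with TMM normalization.

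**Figure D3:**
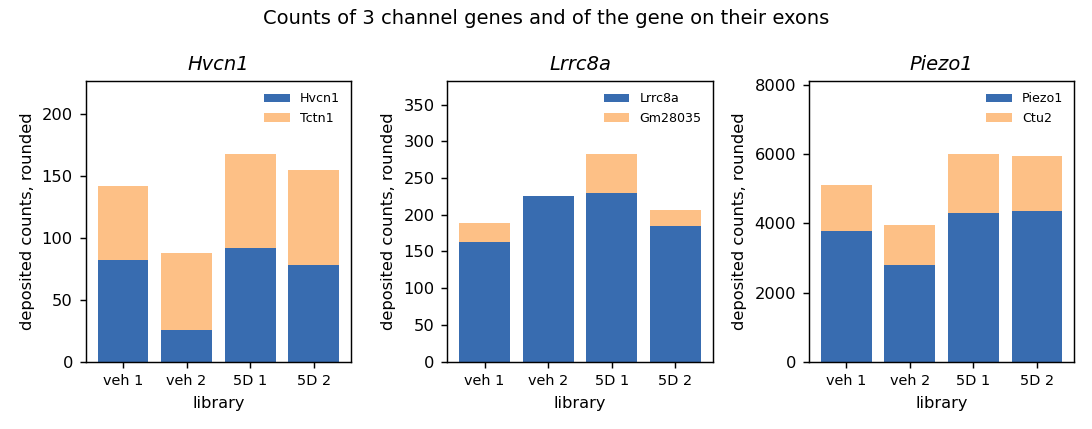
Deposited counts, rounded to whole numbers, of Hvcn1, Lrrc8a and Piezo1 (blue) and, stacked on them, of the protein-coding gene whose exons lie on theirs (orange: Tctn1, Gm28035 and Ctu2), in each of the 4 libraries. The low Hvcn1 bar of vehicle replicate 2, 26 counts, stands beside a Tctn1 part of 62 counts, as tall as in vehicle replicate 1. Gm28035 has 1 count in vehicle replicate 2, where Lrrc8a has 225.

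**Figure D4:**
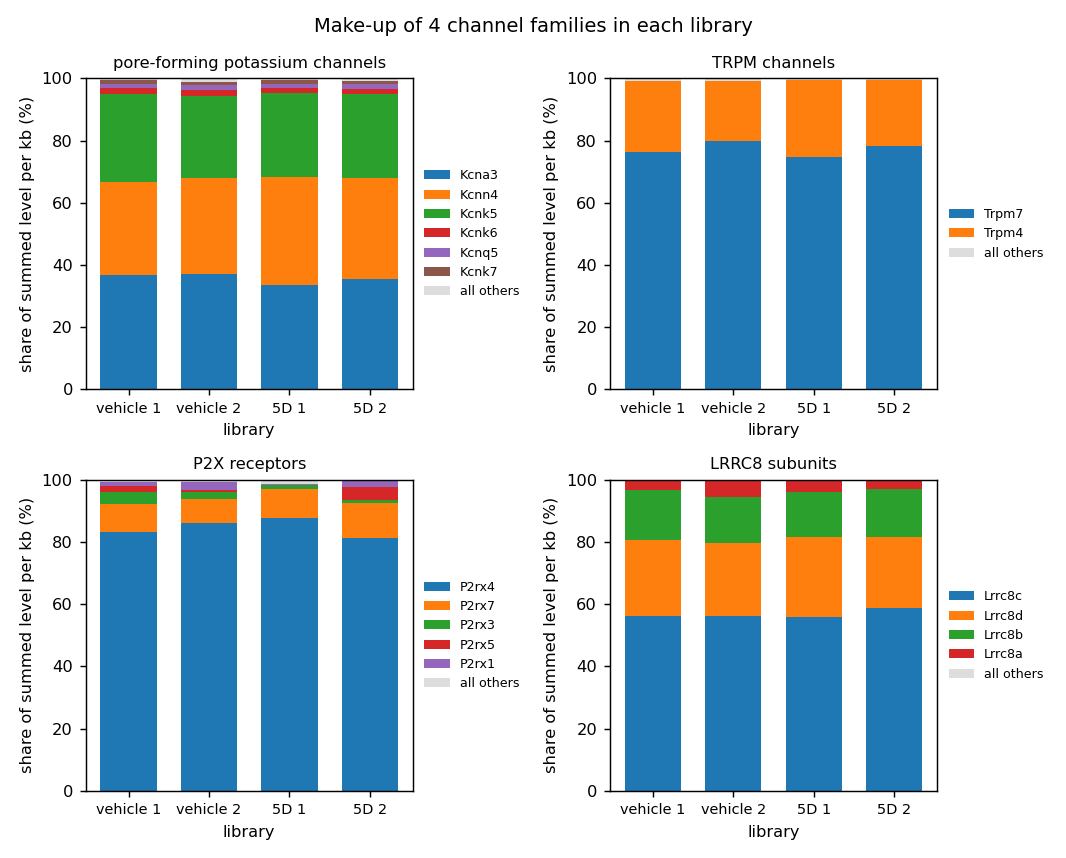
Share (%) of the summed level per kb of exon taken by each gene of 4 channel families in the 2 vehicle and 2 libraries with 5D. Genes with a mean share of at least 1% are drawn by name and the rest in grey. Kcna3, Kcnn4 and Kcnk5 hold the 3 largest shares of the potassium channels, Trpm7 and P2rx4 lead their families, and Lrrc8a is the thinnest named layer of the LRRC8 genes.

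Set in order by level per kb, the 10 genes spanned 109-fold. Trpv2 led at 50.2 normalized CPM per kb, followed by Kcna3 at 35.6, Kcnn4 at 31.7, Piezo1 at 15.4, Trpm7 at 5.76 and P2rx4 at 4.19. Lrrc8a at 1.92, Trpm4 at 1.65, Hvcn1 at 0.768 and P2rx7 at 0.463 came last. Of the 9 neighbouring pairs in this order, 3 had ranges over the 4 libraries that overlapped, namely Kcna3 and Kcnn4, Lrrc8a and Trpm4, and Hvcn1 and P2rx7. Kcna3 with Kcnn4 and Lrrc8a with Trpm4 changed places when the longest transcript was used as the length, where Kcnn4 was at 44.6 and Kcna3 at 35.6 normalized CPM per kb. With that length Trpm7 was at 9.17, P2rx4 at 7.56 and Trpm4 at 4.14, each over 1.5 times its value above. The shares within families given above use the length of all annotated exons, and only that of Lrrc8a was recomputed with the longest transcript.

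All 5 listed regulators of KCa3.1 were tested and had log2 fold changes above 0, with a median of 0.064, and 0 passed an unadjusted p-value of 0.05 in edgeR. Some were very near 0, as Trim27 at 0.0010 (SE 0.061) and Phpt1 at 0.018 (SE 0.13), and here too the shared sign was not tested. The list was not split by whether a regulator activates or inhibits the channel, so the signs give no direction for its activity. Nme2, whose kinase activates the channel, had the highest level per kb of these at 125. Of 27 voltage-gated calcium and sodium channel and endolysosomal TPC channel genes, 12 were tested and 0 passed an unadjusted p-value of 0.05. Over the 10 lists 96 genes were tested, of which 0 passed an adjusted p-value of 0.05 by edgeR or limma-voom. DESeq2 also called 0, but gave no adjusted p-value for 67 of the 96. At an unadjusted p-value under 0.05, edgeR gave 4 higher and 5 lower, which is 9.38% of the genes beside 7.34% of all genes tested, while DESeq2 gave 4 in all and limma-voom 8. The median log2 fold change of these genes was -0.016.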

How the data were processed

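Per the labels and the study's methods, the authors aligned the reads to mm10 with STAR and GENCODE M21, quantified them in Partek, and deposited estimated counts per gene, not normalized, which were rounded here. No other column of per-sample values was in the table. The analysis ran in R 4.3.3 with edgeR 4.0.16, and alternatives used DESeq2 1.42.0 and limma 3.58.1. Upper quartile factors were taken over all genes, and genes with a mean normalized count under 1 or a summed normalized count under 10 were left out, as in the study's methods. The authors' Gene Set Analysis was replaced by edgeR's quasi-likelihood test (two-sided), and p-values were adjusted by Benjamini-Hochberg across all 17650 tested genes. The SE of a log2 fold change is its size divided by the root of F, and 95% intervals use edgeR's total degrees of freedom. Exon lengths and positions are from GENCODE M21. Near-identical stretches of at least 150 nt at 95% identity were searched with BLAST 2.17.0. The members and lists were chosen with earlier results of these data known. Named besides the 10 members are genes of the wider lists with an unadjusted p-value under 0.05 and a mean of at least 1 normalized CPM, and the gene of highest level per kb in each list, of which 1 is not reported here. Other genes of the LRRC8, P2X, TRPM, TRPV and potassium channel families and the genes overlapping members were named after their values were seen. The code was tested on simulated data. Intervals from counts cover counting error only.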

Additional observations from a re-analysis of the deposited data

How the results depend on the processing

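With 4 libraries, the 93 recomputed log2 fold changes of the 10 channel genes kept their direction, and 0 members passed an adjusted p-value of 0.05 under any alternative. Leaving out a library turned 7 of 40 values, in P2rx4 (-0.094 to 0.19), Trpm4 (-0.023 to 0.26), Piezo1 (-0.073 to 0.14), Hvcn1 (-0.21 to 1.23) and Lrrc8a (-0.60 to 0.084). Such a fit leaves a group with 1 library, assumed to vary like the other group. The values of 1.23 for Hvcn1 and -0.60 for Lrrc8a came from the fit without vehicle replicate 1. Clic1 turned to 0.0080 with TMM normalization and ranged from -0.034 to 0.026 with a library left out. Over all genes, the 17 with an adjusted p-value under 0.05 became 46 without a filter, 58 with DESeq2's Wald test, 32 with limma-voom and 41 with the replicate block, and 15 to 180 (180 without vehicle replicate 1 and 79 without vehicle replicate 2) with a library left out. Those with an unadjusted p-value, 1296, became 782 with DESeq2. The 9 genes of the wider lists at an unadjusted p-value became 4 with DESeq2 and 6 to 14 with a library left out (14 without vehicle replicate 1). Titles share replicate numbers, but the deviations of same-numbered libraries correlated at 0.0088, so the numbers were not taken to pair them. With the replicate block 0 members passed. The cause of these moves was not tested. With the longest transcript as the length, 7 of 10 levels per kb moved by more than 1 SD between libraries. The median log2 fold change of the 10 genes was -0.028 to 0.080 with a library left out. The upper quartile after the filter and the summed counts of overlapping genes were alternatives chosen after seeing the data.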
